A study of Mus with 14 samples.

Results

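MHC class II genes were described in single-cell transcriptomes of Kit-positive donor bone marrow cells from 14 transplanted mice. The group comprised 8 of the 32285 genes that each count matrix lists. These were chosen by name for their place in the class II pathway, with earlier results of these data known. They were the antigen-presenting chain genes H2-Aa, H2-Ab1 and H2-Eb1, the invariant chain gene Cd74, the peptide exchange genes H2-DMa, H2-DMb1 and H2-DMb2, and the transactivator gene Ciita. All 8 had UMIs in these files, where a UMI (unique molecular identifier) marks 1 captured transcript. Cells were sorted from Lin-Kit+CD45.2+ marrow of secondary recipients 20 weeks after transplantation. The 4 groups were MxCre (n = 3), Dnmt3a (n = 4), Dnmt3a;Tnfr1KO (n = 3, written Tnfr1KO-labelled here) and Dnmt3a;Tnfr2KO (n = 4, written Tnfr2KO here). The labels give the genotypes in these words only. Per the series' design text, CD45.2+ donor cells had been mixed with CD45.1+ competitor marrow and given to aged, lethally irradiated CD45.1+ recipients, which received poly(I:C) a month later. Poly(I:C) mimics viral RNA and induces interferon, which switches on the Mx1 promoter that drives MxCre, so blood and other interferon-responsive cells recombine. The design text names no group without poly(I:C). Marrow of those primary recipients then went into a second set of aged, irradiated mice. The labels do not say which mice share a primary donor, so the p-values measure only the spread between these mice.

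MHC class II molecules present peptides from the endosomal route to CD4+ T cells. An alpha and a beta chain assemble on the invariant chain CD74, which blocks the groove and leads the complex to endosomes, where DM exchanges the last invariant chain fragment for peptide. Mature B cells, dendritic cells and macrophages are the best known class II cells. CIITA is the master regulator of class II transcription. Blood stem and progenitor cells are also known to carry class II in part. In RefSeq's mouse assembly GRCm38.p6, 6 of the genes lie on chromosome 17, at 34119693 to 34139101 (H2-DMa), 34143229 to 34151553 (H2-DMb2), 34153191 to 34160229 (H2-DMb1), 34263227 to 34269418 (H2-Ab1), 34282744 to 34287823 (H2-Aa) and 34305867 to 34316674 (H2-Eb1). Ciita lies on chromosome 16 at 10480014 to 10531064, and Cd74 on chromosome 18.

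The libraries held 62416022 to 162869740 UMIs, and 66895 of 86693 cell barcodes were kept (1924 to 7265 per library). Dnmt3a replicate 1 kept only 26.5% of its barcodes. Any pair of libraries shared 1 to 15 kept barcodes, at most 0.364% of the smaller library. Lineages were set by UMIs of marker genes, none of them a class II gene, and 63.1% of kept cells met exactly 1 lineage rule, while 11.7% met more than 1 and were left out of the lineages. Stem cells had a UMI of Hlf and of at least 2 genes of a list that includes Mecom, Procr, Fgd5, Ctnnal1, Pdzk1ip1 and Mllt3. There were 4093 of them, 81 to 855 per library. Of the targeted genes, Tnfrsf1a had 42.7 ± 4.29 UMIs per 1000000 (CPM; SD, n = 4) in Dnmt3a stem cells and 38.1 ± 5.47 (SD, n = 3) in Tnfr1KO-labelled stem cells (log2 difference -0.03 ± 0.17, standard error, adjusted p = 0.967, edgeR's quasi-likelihood test). Tnfrsf1b had 10.1 ± 1.93 CPM (SD, n = 4) in Dnmt3a and 6.87 ± 2.95 (SD, n = 4) in Tnfr2KO (log2 difference -0.56 ± 0.24, adjusted p = 0.326), and Dnmt3a did not differ detectably between Dnmt3a and MxCre (0.31 ± 0.13, adjusted p = 0.161). A 3' tag outside a deleted part still counts transcripts, so these values check neither knockout label, and directions drawn from the Tnfr1KO-labelled or the Tnfr2KO libraries rest on the labels. Tnfr2KO replicate 3 had 10.9 CPM of Tnfrsf1b, inside the Dnmt3a range of 7.87 to 11.9.

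Across lineages, the class II genes stood highest in dendritic and mature B cells. Cd74, H2-Aa, H2-Eb1 and Ciita were lower by orders of magnitude in progenitors, and H2-DMa and H2-DMb1 by less. Levels are UMIs of a gene per 1000000 UMIs of all cells of a lineage in a library, with 1 tag per transcript and hence no scaling by transcript length. Cd74 had 12580 ± 2083 CPM in dendritic cells (SD, n = 7 libraries with at least 20 such cells) and 12200 ± 2658 in mature B cells (SD, n = 7), which overlapped. In the 2 libraries with 20 or more macrophages it had 159 and 2523 CPM, and in the 2 with as many T, NK and innate lymphoid cells 128 and 315. Next came B progenitors with 113 ± 124 (SD, n = 4), stem cells with 26.7 ± 24.8 (SD, n = 14) and monocyte progenitors with 25.4 ± 17.5 (SD, n = 14), 3 neighbours that did not differ beyond their spread. Lymphoid-primed cells had 6.09 ± 3.91 CPM (SD, n = 13), neutrophils 3.69 ± 7.78 (SD, n = 11) and basophil or mast cells 3.0 ± 2.59 (SD, n = 13). Megakaryocyte-lineage cells had 2.74 ± 2.42 (SD, n = 13), erythroid cells 1.30 ± 1.12 (SD, n = 14) and granulocyte progenitors 1.28 ± 0.940 (SD, n = 14). The last 2 overlapped, and at such levels free RNA in the droplets cannot be told from expression. Mature B cells were shallow, with a median of 2656 UMIs per cell against 15066 in stem cells. No Tnfr2KO library had 20 mature B cells.

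H2-Aa and H2-Eb1 were also highest in the mature cells. H2-Aa had 5840 ± 673 CPM in dendritic cells and 3598 ± 1565 in mature B cells (SD, n = 7 each), 23.5 ± 17.7 in stem cells (SD, n = 14), and 1.24 ± 1.06 in erythroid cells (SD, n = 14). H2-Eb1 had 4059 ± 975 and 2821 ± 1136 in the same mature cells (SD, n = 7 each), 16.3 ± 13.5 in stem cells and 0.833 ± 0.883 in erythroid cells (SD, n = 14 each). For Cd74 and H2-Aa the lowest stem cell library (4.57 and 5.37 CPM) lay above the highest erythroid one (3.80 and 4.69), while for H2-Eb1 the ranges overlapped. Unlike Cd74, both had a lower mean in B progenitors (16.2 ± 14.1 and 4.70 ± 4.79 CPM, SD, n = 4) than in stem cells. In monocyte progenitors both means were lower as well (9.92 ± 5.08 and 4.73 ± 2.56, SD, n = 14). There the Cd74 mean was also slightly lower (25.4 against 26.7). All of these ranges overlapped those of stem cells.

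H2-Ab1, which encodes the partner chain of H2-Aa, did not keep the same ratio to its partner in every lineage. In dendritic cells H2-Ab1 stood at 5838 ± 680 CPM (SD, n = 7), next to the 5840 of H2-Aa. In granulocyte progenitors it had 29.3 ± 3.52 CPM against 1.10 ± 0.495 for H2-Aa (SD, n = 14 each), and every one of the 14 libraries had more H2-Ab1 (lowest 22.3) than H2-Aa (highest 2.23). Erythroid cells had 23.2 ± 6.60 CPM of H2-Ab1 (SD, n = 14), and B progenitors 122 ± 24.3 against 16.2 ± 14.1 of H2-Aa (SD, n = 4 each). Whether free RNA gave part of these UMIs was not tested.

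H2-DMa was well detected in stem cells and most progenitors too. It had 710 ± 118 CPM in dendritic cells and 521 ± 208 in mature B cells (SD, n = 7 each), 161 ± 26 in lymphoid-primed cells (SD, n = 13), 148 ± 24 in stem cells (SD, n = 14), 105 ± 14.3 in monocyte progenitors and 63.9 ± 7.99 in granulocyte progenitors (SD, n = 14 each). Lymphoid-primed and stem cells did not differ beyond their spread. H2-DMa was lower in erythroid cells with 47.4 ± 15.1 CPM (SD, n = 14), in B progenitors with 24.8 ± 2.63 (SD, n = 4) and in neutrophils with 7.61 ± 3.80 (SD, n = 11). H2-DMb1 had 645 ± 71.5 CPM in dendritic and 125 ± 39.4 in mature B cells (SD, n = 7 each), 39.8 ± 4.89 in monocyte progenitors and 31.9 ± 6.04 in stem cells (SD, n = 14 each). Ciita was scarce outside the mature cells, at 229 ± 48.6 CPM in dendritic cells and 156 ± 50.8 in mature B cells (SD, n = 7 each), 1.77 ± 1.17 in stem cells and 0.373 ± 0.334 in monocyte progenitors (SD, n = 14 each).

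**Figure D1:**
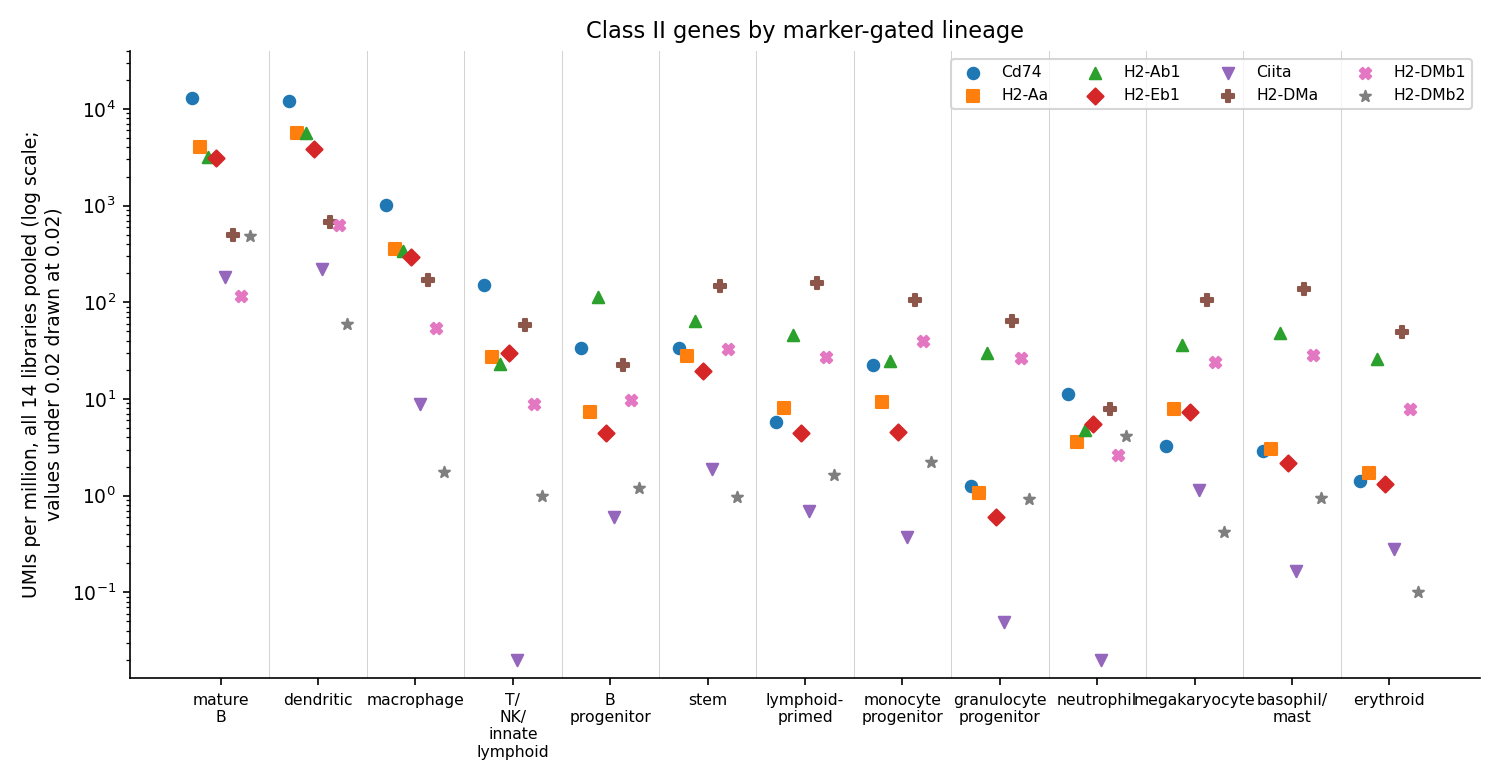
UMIs per 1000000 (CPM, log axis) of the 8 class II genes in each marker-gated lineage, pooled over the 14 libraries, with values under 0.02 drawn at 0.02. The chain genes and Cd74 stand highest in mature B and dendritic cells, while H2-DMa and H2-Ab1 lie above H2-Aa and H2-Eb1 in stem cells and in the progenitor lineages.

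The DM beta chain has a pair of neighbouring gene copies, and which copy was counted depended on the lineage. In mature B cells, H2-DMb2 made up 78.8% ± 4.70 of the UMIs of both copies (SD, n = 7, range 70 to 83.2). In dendritic cells it made up 7.85% ± 4.15 (SD, n = 7, range 4.72 to 16.6), in monocyte progenitors 5.44% ± 0.766, in granulocyte progenitors 3.39% ± 0.613 and in stem cells 3.09% ± 1.12 (SD, n = 14 each). The mature B and dendritic ranges did not overlap. B progenitors held 17.1% ± 8.38 (SD, n = 4). The copies are near-identical, so reads that match both may be assigned to either or dropped, and the split is uncertain to that extent. In neutrophils only 40 UMIs of H2-DMb1 and 63 of H2-DMb2 were counted in all.

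**Figure D2:**
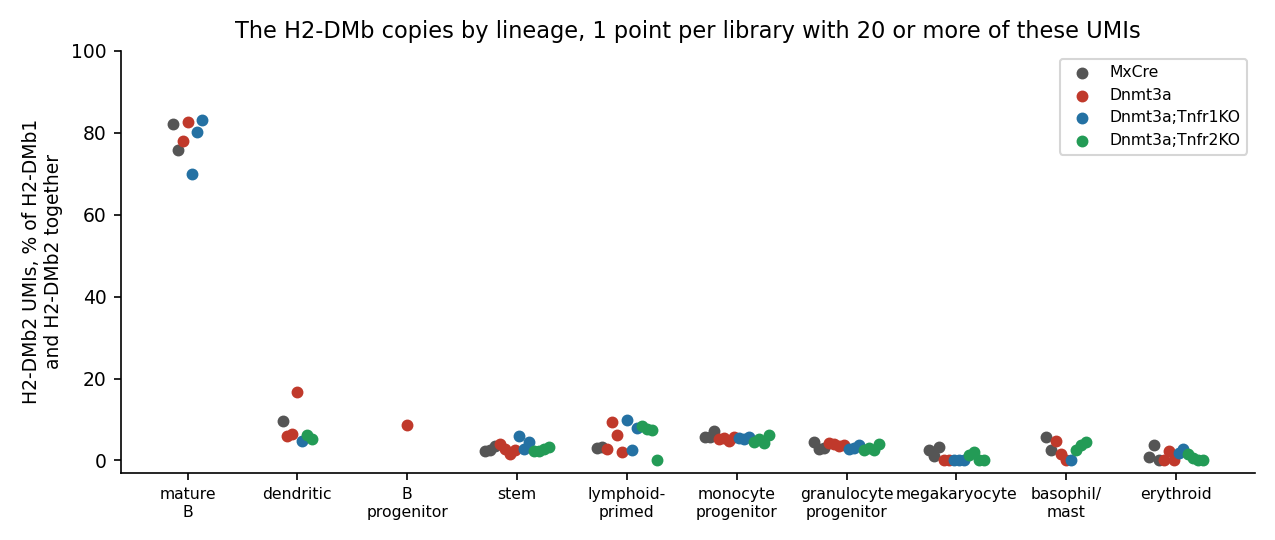
Share of H2-DMb2 among the UMIs of H2-DMb1 and H2-DMb2 together (vertical axis, percent) by lineage, 1 point per library with at least 20 such UMIs, coloured by group. Mature B cells lie between 70 and 86.2%, and dendritic cells between 4.72 and 16.6%.

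Dnmt3a was compared with MxCre in the cells that met the stem cell rule. Cd74, H2-Aa, H2-Eb1 and Ciita fell in Dnmt3a stem cells, by 2.72 to 4.35 times, and H2-Ab1, H2-DMa and H2-DMb1 did not pass the test. Sums over a cell pool cannot tell fewer positive cells from less RNA per cell, so shares of cells are given further on.

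Cd74 had 75.0, 56.5 and 60.3 CPM in the MxCre libraries. In the 4 Dnmt3a libraries it had 5.96, 6.64, 29.8 and 45.0 CPM. Every Dnmt3a library lay below every MxCre library, with replicates 1 and 2 far lower than replicates 3 and 4. The group means were 63.9 ± 9.79 (SD, n = 3) and 21.9 ± 19.0 CPM (SD, n = 4), and the fitted difference was a log2 fold change of -1.72 ± 0.45 (standard error, adjusted p = 0.0225, edgeR). H2-Aa had 66.1, 42.4 and 37.5 CPM in MxCre and 8.58, 13.1, 22.6 and 35.0 in Dnmt3a. These groups did not overlap either, although Dnmt3a replicate 4 lay just below MxCre replicate 3. The fitted difference was -1.44 ± 0.33 (adjusted p = 0.0121, edgeR).

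H2-Eb1 had 48.8, 32.1 and 25.0 CPM in MxCre and 5.96, 4.89, 15.3 and 25.4 in Dnmt3a. The groups overlapped at Dnmt3a replicate 4, and the difference was -1.64 ± 0.35 (adjusted p = 0.00879, edgeR). Ciita was read from few UMIs, with 31, 16 and 30 in the MxCre libraries and 3, 4, 5 and 1 in the Dnmt3a libraries. That came to 3.17 ± 0.543 CPM (SD, n = 3) against 0.691 ± 0.251 (SD, n = 4), with no overlap. The fitted difference was -2.12 ± 0.45 (adjusted p = 0.00753, edgeR). Only in MxCre did every library reach 2.67 CPM, and the highest Dnmt3a library had 0.98. The filter on low counts may thus have kept Ciita through its level in MxCre, so this call is not independent of the filter.

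H2-Ab1 had 114, 67.0 and 52.7 CPM in MxCre and 47.4, 43.2, 64.0 and 85.9 in Dnmt3a. The groups overlapped, and the difference of -0.49 had a 95% interval from -0.97 to 0.00 (adjusted p = 0.230, edgeR). For H2-DMa the means were 137 ± 30.9 (SD, n = 3) and 151 ± 18.1 CPM (SD, n = 4), with an interval of -0.27 to 0.37 for the log2 difference. For H2-DMb1 they were 36.4 ± 3.34 and 32.9 ± 8.21 CPM, with an interval of -0.58 to 0.10. H2-DMb2 had 1 to 14 UMIs per library in stem cells, did not pass the filter on low counts and was not tested. The intervals of H2-DMa and H2-DMb1 thus leave out a fall as large as that fitted for Cd74.

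In that comparison 4 of the 7 class II genes tested were called lower and none higher, where a call is an adjusted p below 0.05. Of all 11232 genes tested, 8.79% were called, with 4.84% called lower and 3.94% called higher. The class II genes were chosen with earlier results of these data known, and Ciita may have passed the filter through MxCre. The count is therefore a description and not an independent test of the set. The median log2 difference was -1.44 over the 7 genes and 0.00 over all genes. Cd74, H2-Aa and Ciita were lower in every Dnmt3a library than in every MxCre library, as were 10.8% of all genes. DESeq2 called only H2-Eb1 (adjusted p = 0.0370) and Ciita (adjusted p = 0.0122). The call of Cd74 was lost without any 1 of the 3 MxCre libraries (-1.55, -1.81 and -1.77 without replicates 1, 2 and 3, adjusted p = 0.0664, 0.0628 and 0.0805, edgeR), and that of H2-Aa without MxCre replicate 1 (-1.11, adjusted p = 0.0621, edgeR). With lineages set after every cell was thinned to 5000 UMIs, no class II gene was called, and Cd74 had -1.32 (adjusted p = 0.0518), H2-Aa -0.86 (adjusted p = 0.0910) and H2-Eb1 -1.09 (adjusted p = 0.0613, edgeR). Ciita did not pass the filter on low counts in that fit and was not tested, whereas its call held without each single library (-2.33 to -1.99, adjusted p at most 0.0403, edgeR).

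**Figure D3:**
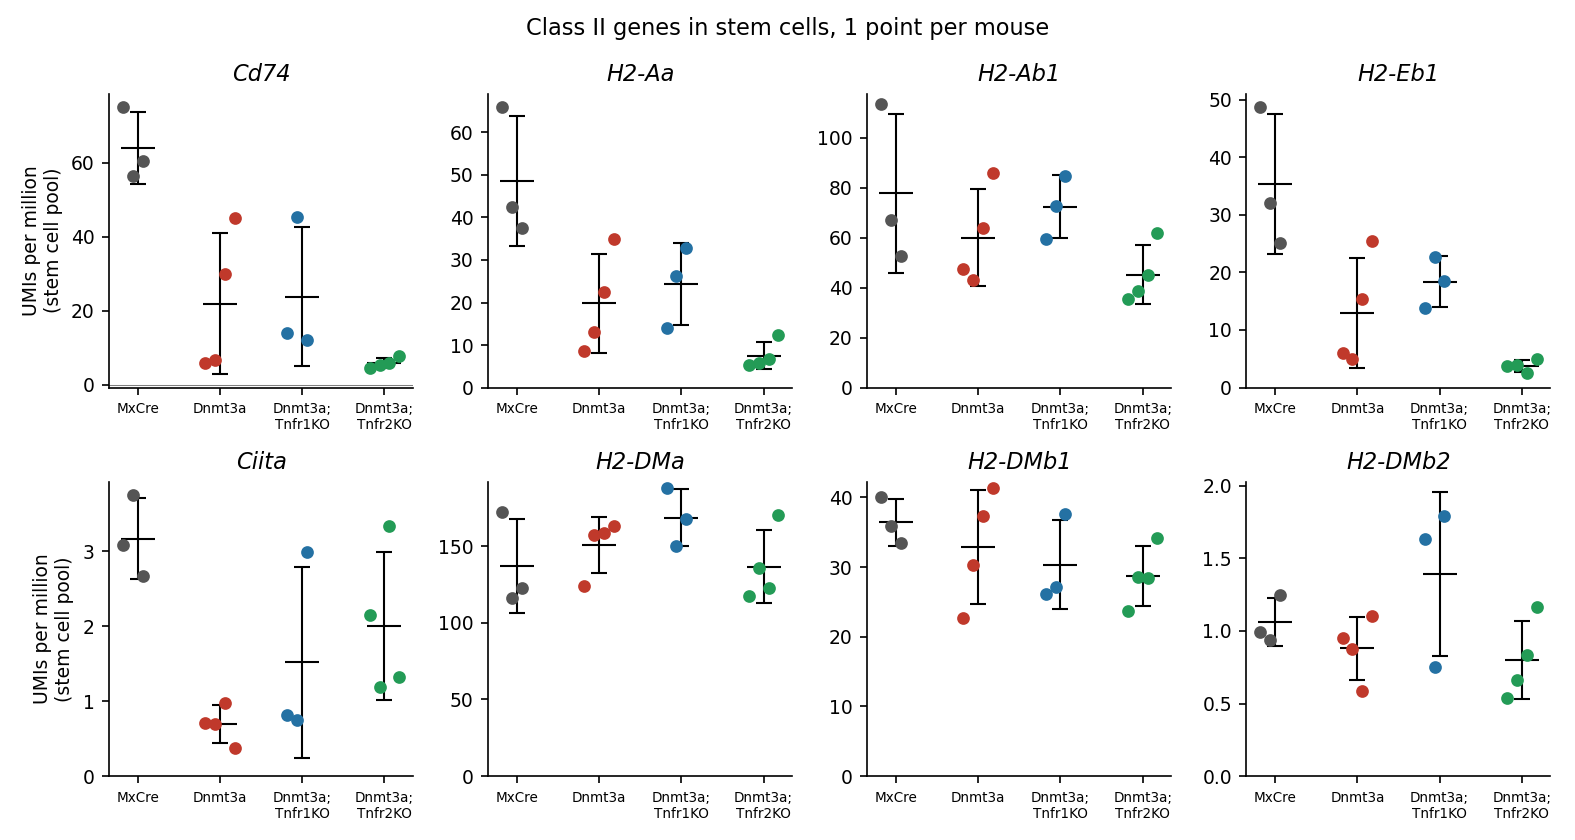
UMIs per 1000000 (CPM) of each class II gene in the stem cell pool of each library (vertical axes), 1 point per mouse, with group mean and SD in black. The 3 MxCre libraries lie between 56.5 and 75.0 CPM for Cd74, and the 4 Tnfr2KO libraries between 4.57 and 7.80.

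The Tnfr1KO-labelled libraries were compared with Dnmt3a for the effect of the Tnfr1 genotype on the mutant background. No class II gene passed the test. Cd74 had 13.9, 45.4 and 12 CPM in the 3 Tnfr1KO-labelled libraries, with replicate 2 just above the highest Dnmt3a library and the others inside the Dnmt3a range. The fitted log2 difference was 0.55, with a 95% interval from -0.47 to 1.56 (adjusted p = 0.683, edgeR). Without Tnfr1KO-labelled replicate 2 it was -0.54, so that library set its sign. H2-Aa had 13.9, 26.2 and 32.9 CPM, H2-Eb1 13.9, 22.7 and 18.5, and H2-Ab1 59.7, 72.6 and 84.9. All of these lay within the Dnmt3a range. The intervals of the log2 differences ran from -0.23 to 1.30 for H2-Aa, from 0.00 to 1.63 for H2-Eb1 and from -0.08 to 0.96 for H2-Ab1, so a rise of less than these upper bounds could have gone undetected. Ciita had 1, 3 and 5 UMIs in these libraries. By edgeR 0 of 7 genes were called, 0 had an unadjusted p under 0.05, and DESeq2 called 0. Of all genes 0.65% were called, and the median difference of the 7 was 0.54 against 0.00 over all genes.

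The 4 Tnfr2KO libraries had the lowest Cd74, H2-Aa and H2-Eb1 of the study on average, but no class II gene passed the test against Dnmt3a. Cd74 had 4.57, 5.30, 5.84 and 7.80 CPM (17, 40, 7 and 47 UMIs), a mean of 5.88 ± 1.39 (SD, n = 4). Dnmt3a replicates 1 and 2, at 5.96 and 6.64 CPM, lay inside that range. The fitted log2 difference from Dnmt3a was -1.66 ± 0.55 (adjusted p = 0.194, edgeR). H2-Aa had 5.37, 5.69, 6.68 and 12.3 CPM in Tnfr2KO, overlapping Dnmt3a at replicate 4. Its difference was -1.17 ± 0.38 (adjusted p = 0.188, edgeR). H2-Eb1 had 3.76, 3.97, 2.50 and 4.98 CPM, overlapping Dnmt3a at Dnmt3a replicate 2, and its difference was -1.42 ± 0.44 (adjusted p = 0.165, edgeR). Without Dnmt3a replicate 2 it was -1.71 and was called (adjusted p = 0.0447, edgeR).

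Ciita went the other way, with 2.15, 1.19, 3.34 and 1.33 CPM in Tnfr2KO (8, 9, 4 and 8 UMIs). Every Tnfr2KO library lay above every Dnmt3a library for Ciita, as was so for 2.72% of all genes. The difference was 1.27 ± 0.50 (adjusted p = 0.288, edgeR), which did not pass. H2-Ab1 had 35.5, 38.8, 45.1 and 61.8 CPM, with an interval of -0.74 to 0.22 for the difference. H2-DMa and H2-DMb1 differed by -0.02 and -0.06, with intervals of -0.32 to 0.28 and -0.39 to 0.28. By edgeR 0 of the 7 genes tested were called, although Cd74, H2-Aa, H2-Eb1 and Ciita had an unadjusted p under 0.05. DESeq2 called 0, and 0.418% of all genes were called by edgeR. The median difference was -0.26 over the 7 genes and 0.01 over all genes.

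Set against the Tnfr1KO-labelled libraries, Tnfr2KO was lower in every library for Cd74, H2-Aa and H2-Eb1, as was so for 2.7% of all genes. The log2 differences were -2.21 ± 0.59 for Cd74 (adjusted p = 0.466, edgeR) and -1.71 ± 0.43 for H2-Aa (adjusted p = 0.325, edgeR). H2-Eb1 came nearest to the threshold, with -2.24 ± 0.47 (adjusted p = 0.0995, edgeR). H2-Ab1 differed by -0.70 ± 0.27 (adjusted p = 1.0, edgeR). By edgeR 0 of 7 genes were called and 4 had an unadjusted p under 0.05, DESeq2 called 0, and 0.0801% of all genes were called. The median of the 7 was -0.70, against 0.00 over all genes. The direction rests on both knockout labels.

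Dnmt3a libraries enter 3 of the 4 comparisons and are not independent between them. Tnfr2KO and MxCre were not a tested pair. Their values stand side by side here and were chosen after they were seen. The mean in MxCre was 10.9 times that in Tnfr2KO for Cd74, 6.48 times for H2-Aa and 9.28 times for H2-Eb1. It was 1.72 times for H2-Ab1, 1.58 for Ciita, 1.27 for H2-DMb1 and 1.33 for H2-DMb2, where the groups overlapped. For H2-DMa the means were 137 CPM in both.

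**Figure D4:**
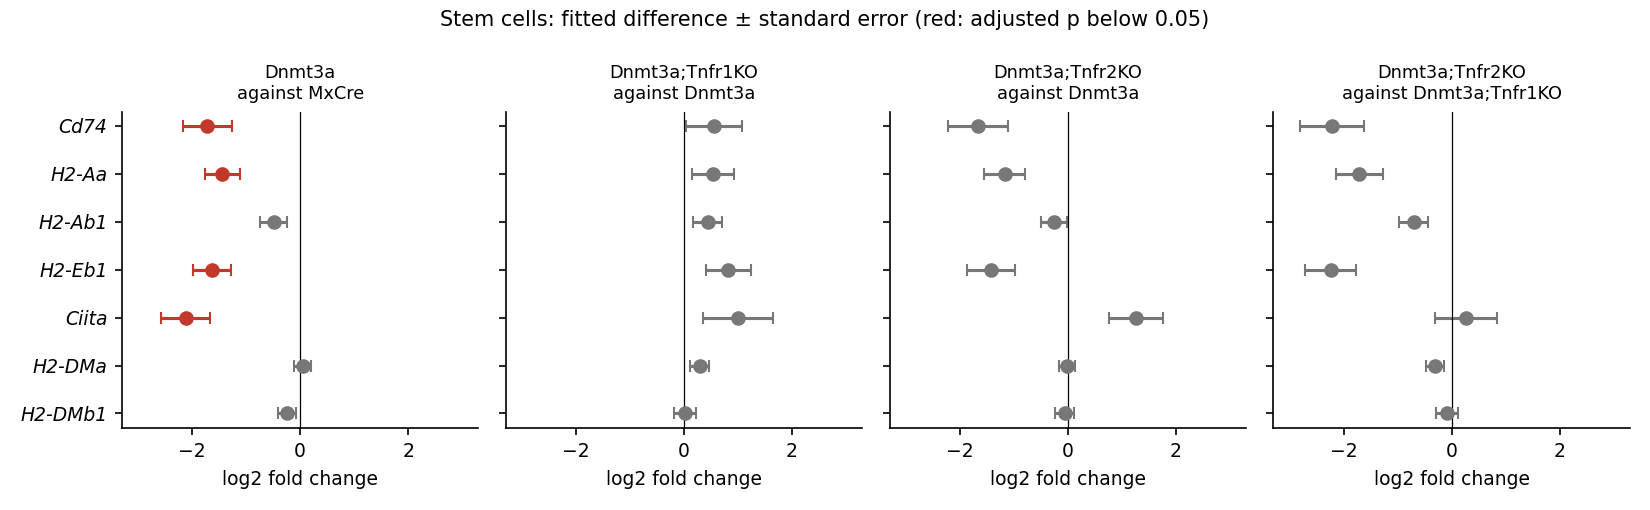
Fitted log2 fold changes (horizontal axes) of 7 class II genes in stem cells for the 4 comparisons, with standard errors as bars and calls at an adjusted p below 0.05 in red. Cd74, H2-Aa, H2-Eb1 and Ciita are called between Dnmt3a and MxCre, and no gene is called in the other comparisons.

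For Cd74, H2-Aa and H2-Eb1, the share of stem cells with a UMI had its highest group mean in MxCre and its lowest in Tnfr2KO, as the pooled level had. Each cell was first thinned to 5000 UMIs, because the median depth of stem cells ran from 10209.5 to 25927.5 UMIs per library. Cd74 was seen in 17.7, 17.9 and 13.7% of MxCre stem cells, a mean of 16.4% ± 2.37 (SD, n = 3). It was seen in 2.65, 2.33, 7.14 and 11% of Dnmt3a stem cells, a mean of 5.78% ± 4.11 (SD, n = 4). The Tnfr1KO-labelled libraries had 5.06, 9.57 and 5.56%, and the Tnfr2KO libraries 2.34, 2.07, 2.06 and 3.47%. MxCre lay above all 11 other libraries. Erythroid cells at the same depth, taken as the background from free RNA, held Cd74 in 0.608% ± 0.505 (MxCre), 0.729% ± 0.855 (Dnmt3a), 1.45% ± 1.35 (Tnfr1KO-labelled) and 0.224% ± 0.165 (Tnfr2KO) of cells. Their median depth before thinning was 19040 UMIs, against 15066 in stem cells. Without thinning, Cd74 was seen in 27.8, 15.6, 14.9 and 6.06% of stem cells on average in the order MxCre, Dnmt3a, Tnfr1KO-labelled and Tnfr2KO.

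H2-Aa was seen in 18.9% ± 4.65 (SD, n = 3), 8.92% ± 2.35 (SD, n = 4), 11.3% ± 5.87 (SD, n = 3) and 3.49% ± 1.89 (SD, n = 4) of stem cells in that order, thinned. H2-Eb1 was seen in 14.5% ± 3.07, 6.08% ± 4.44, 7.15% ± 2.56 and 2.38% ± 0.739. Erythroid shares stayed at or below 1.5% for both genes in every group mean. H2-Ab1 was seen in 29.4, 25.4, 31.9 and 19.7% of stem cells and in 15.0, 8.56, 13.3 and 11.5% of erythroid cells, so erythroid cells held it as well. Ciita was seen in few stem cells, 1.27% ± 0.445 in MxCre (SD, n = 3), 0.691% ± 0.281 in Dnmt3a (SD, n = 4), 1.09% ± 1.11 in Tnfr1KO-labelled (SD, n = 3) and 1.34% ± 0.502 in Tnfr2KO (SD, n = 4). No library had more than 7 such cells at this depth, too few to order the groups. Without thinning, Ciita was seen in 4.19, 1.53, 2.77 and 2.09% of stem cells on average in the same order.

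None of the 16 differences in share (these 4 genes in 4 comparisons) passed after adjustment. The lowest adjusted p was 0.183 in exact two-sided permutation tests over mice, where 3 mice against 4 cannot give a raw p below 0.0571 and 4 against 4 none below 0.0286. With these limits no adjusted p over the 16 tests could fall below 0.05, whatever the values, so the adjusted result decides nothing. Both limits were reached. For Cd74, Dnmt3a lay 10.6 percentage points below MxCre (raw exact p = 0.0571, lower in 4 of 4 libraries). For H2-Aa, Tnfr2KO lay 5.43 points below Dnmt3a (raw exact p = 0.0286, lower in 4 of 4 libraries). The limit of 0.0571 was also reached for H2-Aa in Dnmt3a against MxCre, and for Cd74 and H2-Eb1 in Tnfr2KO against Tnfr1KO-labelled. A raw p at its limit means only that the groups did not overlap. What share of all genes separates by this measure was not determined.

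**Figure D5:**
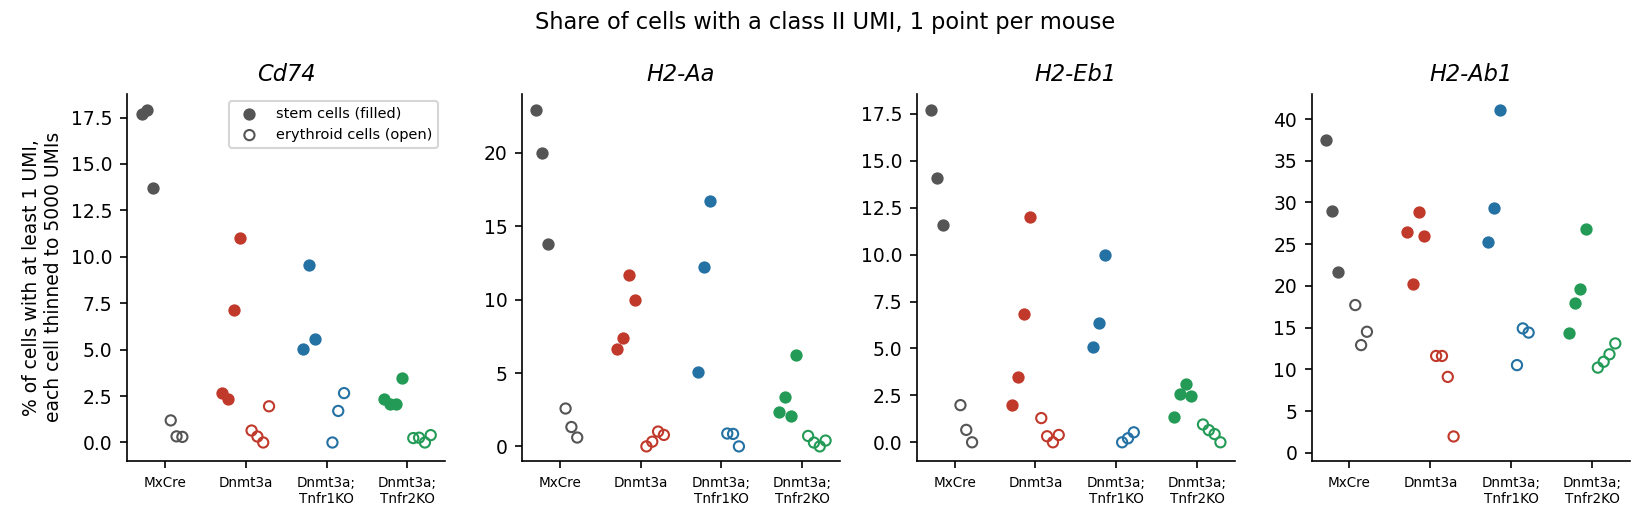
Percent of cells with at least 1 UMI (vertical axes) of Cd74, H2-Aa, H2-Eb1 or H2-Ab1, each cell thinned to 5000 UMIs, for stem cells (filled) and erythroid cells (open), 1 point per mouse. For Cd74 the MxCre stem cell shares lie at 13.7 to 17.9% and the Tnfr2KO ones at 2.06 to 3.47%.

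Cells with 3 or more Cd74 UMIs were found in each group, but the highest count in a cell differed. It was 4 in Tnfr2KO and 18 in each other group, with cells thinned to 5000 UMIs. At 5000 UMIs per cell, 78 of 1687 MxCre stem cells held 3 or more Cd74 UMIs, against 8 of 817 in Dnmt3a, 6 of 357 in Tnfr1KO-labelled and 2 of 1185 in Tnfr2KO. These cells were pooled over the mice of a group and are not replicates, so 1 mouse or 1 cell can set a value. At full depth 1 cell held 52 and 47 Cd74 UMIs in Dnmt3a replicates 3 and 4, and 54 in Tnfr1KO-labelled replicate 2. At full depth the 3 richest cells held 11.9 to 16.6% of the Cd74 UMIs in the MxCre libraries. They held 23.7 to 61.5% in Dnmt3a, 50 to 60.0% in Tnfr1KO-labelled and 29.4 to 45.0% in Tnfr2KO libraries. With 7 to 47 Cd74 UMIs in the Tnfr2KO libraries, a few cells hold a large share by number alone, so these shares do not compare the spread between groups. In Dnmt3a replicate 3, 2 stem cells with at least 10 UMIs of the antibody light chain gene Igkc held 61 of the 152 Cd74 UMIs, and without such cells the 4 calls between Dnmt3a and MxCre remained.

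H2-Aa and H2-Eb1 were seen more often in MxCre stem cells with a Cd74 UMI than in the others. In each of the 3 MxCre libraries, H2-Aa was seen in 55.1, 59.6 and 47.0% of the stem cells with a Cd74 UMI, against 16.0, 11.3 and 8.53% of the others, at equal depth. H2-Eb1 was seen in 46.9, 48.1 and 40.9% against 11.4, 6.72 and 7.02%. H2-DMa was seen in 60.2, 51.9 and 47.8% against 57.3, 45.0 and 45.1%. Procr, a surface marker of long-term stem cells, was seen in the Cd74-positive cells at 24.5, 57.7 and 44.3% against 10.9, 18.9 and 19.1%. A UMI of the division genes Mki67, Top2a, Birc5 or Cenpf was seen at 45.9, 19.2 and 19.1% against 68.9, 57.6 and 54.9%. Each of these pairs of values had the same direction in 3 of 3 libraries, and no test over the libraries was made. Procr is part of the stem cell rule. In cells pooled by group, H2-Aa and H2-Eb1 had the same direction in the other groups. H2-DMa was seen in 51.2% of 43 Cd74-positive cells against 53.1% of the others in Dnmt3a, and in 44.4% of 27 against 55.5% in Tnfr1KO-labelled. In Tnfr2KO it was seen in 58.1% of 31 against 51.6%. With so few cells, pooled over mice, these values set no direction for H2-DMa.

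The share of stem cells with a division gene UMI, again at 5000 UMIs per cell, was not tested between groups. It was 55.2% ± 8.41 in MxCre (SD, n = 3), 74.6% ± 5.63 in Dnmt3a (SD, n = 4), 64.4% ± 1.06 in Tnfr1KO-labelled (SD, n = 3) and 68.7% ± 2.82 in Tnfr2KO (SD, n = 4). At full depth fewer cells lack such a UMI, 103 to 341 per library in MxCre, 6 to 45 in Dnmt3a, 19 to 42 in Tnfr1KO-labelled and 28 to 97 in Tnfr2KO. Among these cells, Cd74 had 202, 154 and 141 CPM in MxCre and 59.7, 13, 75.0 and 110 CPM in Dnmt3a. The Tnfr1KO-labelled libraries had 39.3, 205 and 43.4 CPM, and the Tnfr2KO libraries 14.4, 5.23, 10.9 and 22.7. For Cd74 the Dnmt3a libraries lay below MxCre, and Tnfr2KO below Tnfr1KO-labelled. Dnmt3a replicates 1 and 4 and Tnfr1KO-labelled replicate 3 had fewer cells here than the minimum set for testing a library. What share of all genes separates in the same way in stem cells without a division gene UMI was not determined. A fit on these cells left out Dnmt3a replicates 1 and 4 and Tnfr1KO-labelled replicate 3, which had 12, 6 and 19 of them. It called Cd74 between Dnmt3a and MxCre (-2.10, adjusted p = 0.0161, edgeR), but no longer H2-Aa (-1.07, adjusted p = 0.140) or H2-Eb1 (-1.66, adjusted p = 0.0649). It called Cd74 (-3.42, adjusted p = 0.00103), H2-Aa (-2.27, adjusted p = 0.0329) and H2-Eb1 (-2.99, adjusted p = 0.0101) lower in Tnfr2KO than in Tnfr1KO-labelled. Ciita did not pass the filter there and was not tested. The fit called 0.833% and 0.0672% of 7442 genes in these comparisons. That fit was added after the data had been seen.

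The few defining genes of mature B and dendritic cells were at or near 0 in the stem cell pools, while the longer marker lists of these cells were not. The B cell gene Ms4a1 and the plasmacytoid dendritic gene Siglech had 0 UMIs in all 14, which by a floor of 3 UMIs allows up to 0.267 CPM in the deepest pool and 2.50 in the shallowest. The defining mature B genes (Ms4a1, Ighd and Fcer2a) summed to 0.00 to 0.476 CPM and the defining dendritic genes (Siglech, Clec9a, Xcr1 and Cd209a) to 0.00 to 0.469. These genes are part of the mature B and dendritic rules, and cells that also met such a rule were left out of the stem cells. A UMI of 1 such gene alone met none of these rules. The low values are therefore not an independent check. The whole mature B list of 11 genes, of which 1 to 7 had a UMI in a pool, summed to 26.7 to 30.4 CPM in MxCre, 21.7 to 38.3 in Dnmt3a, 22.7 to 27.9 in Tnfr1KO-labelled and 27.4 to 34.4 in Tnfr2KO. The conventional dendritic list of 10 genes summed to 6.56 to 10.7, 9.29 to 14, 5.38 to 13.7 and 5.64 to 22.5, and the macrophage list of 8 genes to 5.08 to 9.45, 0.874 to 6.64, 1.63 to 13.2 and 2.25 to 6.98, in that order. The B progenitor list of 10 genes reached 31.7 CPM in Dnmt3a, against at most 3.58 in MxCre, 8.37 in Tnfr1KO-labelled and 16.7 in Tnfr2KO. The plasma cell list of 6 genes reached 302 in Dnmt3a, against at most 41.9, 44.7 and 49.2 in the same 3 groups. The antibody genes Igkc, Ighm and Iglc2 reached 2510 CPM in Dnmt3a replicate 3. The part of these markers in the class II levels was not tested beyond leaving cells out. Stem cells with a UMI of the listed B or dendritic genes made up 30.6 to 46.1% of stem cells in MxCre, 41.3 to 74% in Dnmt3a, 33 to 58% in Tnfr1KO-labelled and 33.3 to 48.3% in Tnfr2KO libraries. With all of them left out, Cd74 (-2.27, adjusted p = 0.000324), H2-Aa (-1.47, adjusted p = 0.0118) and H2-Eb1 (-1.69, adjusted p = 0.00463, edgeR) were still called lower in Dnmt3a than in MxCre, and Ciita did not pass the filter and was not tested.

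Outside stem cells, the test called 1 class II gene in 1 comparison. Cd74 in granulocyte progenitors was the 1 call among the members in the 7 other lineages tested and in all kept cells together. It had 0.643, 0.302, 0.365 and 0.585 CPM in Tnfr2KO and 0.806, 0.890, 3.46 and 2.07 in Dnmt3a, without overlap, as was so in this direction for 6.54% of all genes. The difference was -1.80 ± 0.45 (adjusted p = 0.0379, edgeR, with 4.22% of 12730 genes called). These levels lie in the range of erythroid cells (0.00 to 3.80 CPM), and the call was lost without any of 6 single libraries (Dnmt3a replicates 3 and 4 and each Tnfr2KO library). In monocyte progenitors H2-Eb1 had 2.34, 0.572 and 1.32 CPM in Tnfr1KO-labelled against 4.82, 7.47, 5.86 and 6.93 in Dnmt3a, again without overlap, as for 7.77% of all genes. The difference of -1.86 ± 0.45 missed the threshold in edgeR (adjusted p = 0.0531) and passed it in DESeq2 (adjusted p = 0.00121), and edgeR called 1.06% of all genes there. Cd74 had 5.72 to 14.6 CPM in Tnfr1KO-labelled against 19.4 to 46.2 in Dnmt3a monocyte progenitors, and H2-Aa 2.04 to 6.59 against 8.66 to 15.7, also without overlap. Their differences of -1.30 ± 0.45 (adjusted p = 0.139) and -1.26 ± 0.41 (adjusted p = 0.126, edgeR) did not pass, and the intervals of H2-Ab1 (-0.61 to 0.22) and H2-DMa (-0.18 to 0.43) held 0. Cd74 in lymphoid-primed cells differed by -1.81 ± 0.38 between Tnfr2KO and Tnfr1KO-labelled (adjusted p = 0.0652, edgeR, with 0.119% of genes called), in the direction of the stem cells. In the remaining fits outside stem cells the counts of called class II genes were 0, where 0 to 8 of the 8 passed the filter. Over the 7 other lineages 0.0 to 4.74% of all genes were called per comparison.

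Mature B, dendritic, macrophage, T/NK and B progenitor pools were not tested, because a lineage was tested only where each of the 4 groups kept 2 or more libraries. Cd74 in mature B cells had 14340 and 14350 CPM in MxCre replicates 1 and 3, 7367 and 12900 in Dnmt3a replicates 3 and 4, and 10680, 14630 and 11140 in the Tnfr1KO-labelled libraries. In dendritic cells it had 13610 in MxCre replicate 1, 12510, 13580 and 16040 in Dnmt3a replicates 2 to 4, 11130 in Tnfr1KO-labelled replicate 1, and 11600 and 9590 in Tnfr2KO replicates 1 and 2. Among groups with more than 1 library, the 2 MxCre mature B pools lay above the 2 Dnmt3a ones for Cd74, and the 2 Tnfr2KO dendritic pools below the 3 Dnmt3a ones. The Cd74 range of Tnfr1KO-labelled mature B cells overlapped those of both other groups. H2-Aa, H2-Ab1, H2-Eb1, H2-DMa, H2-DMb1 and H2-DMb2 were also lower in both Dnmt3a mature B pools than in both MxCre ones, while Ciita overlapped. H2-Aa had 1074 to 3992 CPM in Dnmt3a against 4750 to 5257 in MxCre, and H2-DMa 247 to 438 against 757 to 811. In the same dendritic pools H2-DMb1 lay the other way, with 719 to 740 CPM in Tnfr2KO against 550 to 691 in Dnmt3a. There H2-Aa, H2-Ab1, H2-Eb1 and Ciita lay in the direction of Cd74, and H2-DMa and H2-DMb2 overlapped. With 2 or 3 pools per group, full separation is frequent by chance. What share of all genes separates in these pools was not determined, so these directions decide nothing about the class II genes.

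Rare mature cells held much of the Cd74 counted over all kept cells, to an extent that differed between libraries. Pooled over the 14 libraries, dendritic cells, 358 of the 66895 kept cells, held 46.9% of all Cd74 UMIs and mature B cells (772 cells) 26.2%, with 30330 of the UMIs from Dnmt3a replicate 4. Per library, dendritic cells held 9.92 to 88.1%, mature B cells 0.00 to 75.2% and stem cells 0.214 to 18.1%. In MxCre replicate 3 stem cells, at 18.1%, held more than dendritic cells, at 9.92%. Cd74 over all cells had 56, 44.2 and 48.4 CPM in MxCre and 29.5, 87.7, 79.8 and 293 in Dnmt3a. The fitted difference was 1.21 ± 0.67 (adjusted p = 0.293, edgeR, with 2.42% of genes called), opposite in sign to the one in stem cells. The difference between the 2 contrasts was not tested. Tnfr2KO had 61.9, 45.3, 16.3 and 18.9 CPM and Tnfr1KO-labelled 69.2, 220 and 89.9. By edgeR 0 of the 8 genes were called over all cells in the 4 comparisons, where 2.42, 0.448, 0.819 and 0.205% of all genes were called in the order given for stem cells, with 0, 0, 4 and 5 at an unadjusted p under 0.05, and DESeq2 called 0. For H2-DMa the source differed, since granulocyte progenitors held 21.3% and monocyte progenitors 15.1% of its UMIs, and dendritic cells 2.2%.

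Other genes of the pathway were read from lists, and most of their calls in stem cells came from Dnmt3a against MxCre. Among antigen processing genes, 2 of 9 tested were called lower in Dnmt3a than in MxCre and none higher, where 8.79% of all genes were called and 4.84% called lower. Ifi30, which encodes the lysosomal thiol reductase GILT, had 15.7 ± 3.18 CPM in MxCre (SD, n = 3), 5.73 ± 1.81 in Dnmt3a (SD, n = 4), 13 ± 4.19 in Tnfr1KO-labelled (SD, n = 3) and 17.7 ± 6.66 in Tnfr2KO (SD, n = 4). It fell in Dnmt3a against MxCre (-1.5 ± 0.28, adjusted p = 0.00349, edgeR) and rose in Tnfr2KO against Dnmt3a (1.62 ± 0.28, adjusted p = 0.00838, edgeR), unlike Cd74 and the chain genes. Ciita had the same 2 directions, without a call in Tnfr2KO. In Tnfr1KO-labelled against Dnmt3a, Ifi30 just missed the threshold (1.36 ± 0.32, adjusted p = 0.0551, edgeR). Tnfr2KO and Tnfr1KO-labelled differed by 0.25 ± 0.30, so the rise was not particular to Tnfr2KO. Of the interferon gamma receptor and signalling genes, 1 of 5 fell and 2 rose in Dnmt3a, where 3.94% of all genes were called higher. Socs1, a feedback inhibitor of cytokine signalling, fell (-0.96 ± 0.26, adjusted p = 0.0282), and the receptor genes Ifngr1 (0.59 ± 0.13, adjusted p = 0.0111) and Ifngr2 (0.66 ± 0.20, adjusted p = 0.0429, edgeR) rose.

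Among 11 genes of class II transcription tested, only Spi1, which encodes the myeloid and B cell factor PU.1, was called (0.55 ± 0.14, adjusted p = 0.0212, edgeR), a share near the 8.79% of all genes. The median log2 differences between Dnmt3a and MxCre were -0.04 for processing, 0.08 for interferon gamma signalling and -0.08 for transcription, close to the 0.00 over all genes. None of the 2 accessory chain genes, 3 costimulation genes and 1 turnover gene tested was called in any comparison by edgeR, with 1, 1 and 0 of them at an unadjusted p under 0.05 in Dnmt3a against MxCre. Beyond Ifi30, no gene of these lists was called in Tnfr2KO against Dnmt3a, and none in the comparisons with Tnfr1KO-labelled.

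Over the 14 stem cell pools, the correlations of Cd74 with the chain genes were high and those of Ciita low. Pearson's r of log2 CPM was 0.957 between H2-Aa and H2-Eb1, 0.940 between Cd74 and H2-Eb1, and 0.915 between Cd74 and H2-Aa. It was 0.165 between Ciita and Cd74 and 0.122 between H2-DMa and Cd74. After the group means were taken off, r was 0.833, 0.859, 0.725, -0.324 and 0.270 for these 5 pairs. H2-Ab1 had r of 0.726 with Cd74 and 0.857 with H2-Aa (0.602 and 0.891 after the group means), and H2-DMb1 had 0.604 and 0.747 (0.533 and 0.903). The genes most like the mean of the class II genes, of 11225 ranked, were Josd2 (r = 0.877), Gch1 (0.872), Armc3 (0.832), Triobp (0.818) and Tmem223 (0.802). The points share library and depth, and Ciita counts were small.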

How the data were processed

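Per the labels' protocols, 12000 sorted cells per mouse were loaded for 10x Chromium version 3.1 3' libraries, 14 in all, which were read on a NovaSeq. The submitters' processing notes name bcl2fastq 2.20.0.422, Cell Ranger 6.0.0 and the genome builds mm10 and GRCm38, and the role of each is not given in the sources used here. Each deposited matrix gives, as integers, the count of UMIs for a gene in a barcode, not normalized.

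Barcodes were kept from 1000 UMIs and 500 genes upward if mitochondrial UMIs made up less than 10%. Doublets were called in each library among neighbours of simulated doublets, at 0.8% per 1000 cells, and removed. Lineages were set by numbers of detected marker genes, and cells that met more than 1 rule were left out. The stem cell list is not reported here in full. The dendritic pool joins plasmacytoid and conventional dendritic cells. The marker numbers were set after marker UMIs had been seen, without class II genes. The class II genes and the pathway lists were chosen with earlier results of these data known. The genes named are all 8 class II genes, the targeted genes, up to 5 called genes of the pathway lists per comparison by absolute log2 fold change, and the 5 genes most correlated with the class II mean over stem cell pools.

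UMIs were summed per library and lineage, leaving out libraries with under 20 cells of it. Sums were tested with edgeR 4.0.16 (quasi-likelihood, two-sided, TMM, filterByExpr, all 4 groups in 1 model, no covariates), with Benjamini-Hochberg adjustment over all genes of a lineage and comparison, in R 4.3.3. A lineage was tested where each group kept 2 or more libraries. CPM values are UMIs per 1000000 without TMM. Shares of cells were compared by exact permutation in Python 3.11.15 with scipy 1.17.1, adjusted over 16 tests. Alternatives were DESeq2 1.42.0, no filter on low counts, 2-group fits, a replicate block, each library left out, doublets kept, other cut-offs on UMIs, mitochondrial share and markers, other thinning, and 3 chosen after the data had been seen (stem cells that also met the megakaryocyte rule kept, dividing stem cells left out, Igkc-rich stem cells left out). The edgeR steps were tested on simulated data. The 95% intervals of log2 differences reach 1.96 standard errors to each side, and floors cover counting error only. Library depths are 62416022 to 162869740 UMIs.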

Additional observations from a re-analysis of the deposited data

Results flagged for a closer look

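H2-DMa in the stem cells of Dnmt3a replicate 1 had 123.9 CPM and lay apart from the other 3 Dnmt3a libraries, which had 157.1, 158.8 and 163.3. The gap to the nearest of them, as a share of the group's range, was above Dixon's 95% critical value for 4 libraries. It was 1 flag among 24 groups of values tested for a sample far from the others, and chance gives about 1 in 20. The same library kept 26.5% of its barcodes and had the highest median depth of stem cells, 25927.5 UMIs. Their part in the value was not tested.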

How the results depend on the processing

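In stem cells, the number of class II genes called between Dnmt3a and MxCre was 4, and it was 2 with DESeq2, 0 with gates on thinned cells, 2 with 1 more marker, 1 without dividing stem cells and 2 to 4 when a library was left out. All genes called there numbered 987, and 907 with DESeq2, 1591 with no filter on low counts, 570 without cells that had B or dendritic UMIs, 638 with 1 more marker, 241 with gates on thinned cells, 62 without dividing cells, and 199 to 1233 when a library was left out. For Tnfr1KO-labelled against Dnmt3a the class II count of 0 became 1 with no filter (470 genes called in all). For Tnfr2KO against Dnmt3a it became 3 with no filter (421 in all) and 1 with gates on thinned cells (48 in all), and was 0 to 1 with a library left out. For Tnfr2KO against Tnfr1KO-labelled it became 4 with no filter (115 in all), 1 with only the 2 groups in the fit (8 in all), and 3 without dividing cells (5 in all).

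Same-numbered libraries of different groups did not detectably deviate together (r from -0.189 to 0.106 over 19 pairs, 1 of them over 0.1). Of 14 libraries, 3 correlated best with their own number. No pairing by number was thus detected, and whether same-numbered mice share a donor was not tested. With a replicate block, 2 class II genes were called in that last comparison (H2-Aa -2.14 and H2-Eb1 -2.64, each with adjusted p = 0.0285, edgeR, 15 genes called in all), and the call of Cd74 in granulocyte progenitors was lost, leaving 0.

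In other lineages, with no filter, the counts in the order of comparisons were 1, 2, 1 and 3 in lymphoid-primed cells and 4, 3 and 2 in neutrophils (the first 3, where no class II gene passed the filter), 3 in the megakaryocyte lineage (Dnmt3a against MxCre), 1 in basophil and mast cells (Tnfr2KO against Dnmt3a), 3 and 1 in monocyte progenitors (Tnfr1KO-labelled against Dnmt3a, then Tnfr2KO against Tnfr1KO-labelled) and 1 in granulocyte progenitors (Tnfr2KO against Tnfr1KO-labelled), each against 0, with 0.246 to 2.55% of all genes called. DESeq2 called 1 in each of the last 3 of these (0.178 to 2.6% of all genes). With only the 2 groups, 1 was called in lymphoid-primed cells (Tnfr2KO against Tnfr1KO-labelled) and 1 in monocyte progenitors (Tnfr1KO-labelled against Dnmt3a), where cells of at least 3000 UMIs also gave 1 (0.152, 1.03 and 1.06% of all genes). The count of 1 in granulocyte progenitors became 0 with 2 groups, 0 with 1 more marker and 3 with gates on thinned cells (0.269, 4.75 and 4.76% of all genes), and was 0 to 2 with a library left out, as against 0 to 1 in lymphoid-primed cells and neutrophils.

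Fitted differences that changed sign were mostly those near 0, and ranges here are over fits with a library left out. For Dnmt3a against MxCre, H2-DMa ranged from -0.06 to 0.29, with -0.05 at thinned gates, and H2-DMb1 became 0.03 without dividing cells. For Tnfr1KO-labelled against Dnmt3a, H2-DMa became -0.03 without dividing cells. H2-DMb1 there became -0.32 without dividing cells, -0.01 with no filter and with 1 more marker, -0.20 with thinned gates and -0.05 with the megakaryocyte rule, and ranged from -0.15 to 0.13. Cd74 there ranged from -0.54, with Tnfr1KO-labelled replicate 2 omitted, to 1.06, with Dnmt3a replicate 4 omitted. For Tnfr2KO against Dnmt3a, H2-DMa became 0.08 (thinned gates) and 0.00 (megakaryocyte rule) and ranged from -0.13 to 0.04, and H2-DMb1 from -0.22 to 0.04. Against Tnfr1KO-labelled, H2-DMb1 ranged from -0.19 to 0.09 and Ciita from -0.31 (without Tnfr1KO-labelled replicate 2) to 1.08 (without replicate 3), with -0.18 at mitochondrial UMIs under 5%.

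Shares of stem cells that changed sign were, for Tnfr1KO-labelled against Dnmt3a, Cd74 at -0.635 points as deposited, -1.22 when thinned to 3000 UMIs and -0.47 to 2.69 with a library left out, H2-Aa at -0.27 to 5.53 and H2-Eb1 at -0.35 to 3.05 with a library left out. H2-Ab1 there was at -0.83 points as deposited and -2.01 when thinned to 3000 UMIs. For Dnmt3a against MxCre, H2-Ab1 became 12.4 points as deposited and ranged from -7.84 to 0.0356 (without MxCre replicate 1). The causes were not tested. Lymphoid-primed cells and neutrophils kept too few libraries for some cell filters, which were not run there. Low UMI numbers limit Ciita and H2-DMb2 most.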
